A study of Homo sapiens with 6 samples.

Results

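Epithelial-mesenchymal transition (EMT) is the programme by which epithelial cells loosen their junctions and take on the shape and matrix of mesenchymal cells. It is driven by transcription factors of the ZEB, SNAI and TWIST families, which repress epithelial genes such as the one for E-cadherin, while N-cadherin, vimentin and fibronectin mark the mesenchymal state. In the retina, transition of the pigment epithelium is known from proliferative vitreoretinopathy, and cultured pigment epithelial cells commonly express vimentin. The 10 genes described here are the regulators ZEB1, ZEB2, SNAI1, SNAI2, TWIST1 and TWIST2 and the markers VIM, CDH1, CDH2 and FN1. They were taken by name, and all 28 probe sets that the platform annotation assigns to one of them alone were kept, of 49293 probe sets that are not controls (10 of 18132 genes).

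The samples were RNA from ARPE-19, an established human retinal pigment epithelial line, on 6 Affymetrix arrays. By the protocol, cells were transfected with a green fluorescent protein (GFP) plasmid and after 48 h were given glucose oxidase, an enzyme that makes hydrogen peroxide from glucose, at 10 mU/ml for 3 h (3 arrays) or received no enzyme (0 h, 3 arrays). The sample descriptions name a different plasmid for the 3 h arrays, GFP with alpha satellite, so treatment and plasmid cannot be told apart. No 3 h group without the enzyme was analysed here. The labels describe no separate cultures for the replicates, so the p-values measure the spread between these arrays, which may be technical. Values are log2 units of a probe set (a group of probes read as one signal), and a change is the 3 h mean minus the 0 h mean.

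Pairs of 3 h arrays had r of 0.996 to 0.9967 and pairs of 0 h arrays had 0.9971 to 0.9974, while a 3 h and a 0 h array together had 0.9872 to 0.9899. Controls differed with the treatment: all 24 probe sets for the poly-A spikes and 17 of 18 for the hybridization spikes were lower on every 3 h array, by a median of -0.60 and -0.31. The 5′ minus 3′ value of the actin control was -1.24 to -1.13 on the 3 h arrays, against -2.11 to -1.99 on the 0 h arrays. For the GAPDH control it was -0.16 to -0.09 at 3 h, against -0.43 to -0.34 at 0 h. The exact two-sided permutation p was 0.1 for both, the smallest that 3 against 3 arrays allow. These differences accompany every change given here, and their part in the changes was not tested. Of 16 markers of retinal pigment epithelium, 14 had a probe set and 9 were above the floor defined next, of which 4 rose and 1 fell, while RPE65, RLBP1, TYRP1, MERTK and LRAT were under it. KRT18, a keratin, averaged 12.56 at 3 h and 12.22 at 0 h, and SERPINF1, a secreted factor of this epithelium, averaged 5.71 at 3 h and 6.12 at 0 h. Markers of other cell types were in part above the floor: CD3E of 3 blood markers, PECAM1 and VWF of 3 for endothelium, CRX and NRL of 3 for photoreceptors, and GFAP, SYT1 and RBFOX3 of 4 for glia and neurons. GFAP averaged 6.26 at 3 h and 6.16 at 0 h, and SYT1 averaged 6.11 at 3 h and 6.33 at 0 h. CD3E averaged 5.23 at 3 h and 5.0 at 0 h, while PTPRC, common to blood cells, was dim at 2.54 at 3 h and 2.44 at 0 h. In these 4 lists 0 tested markers rose and 1 fell. Over the pigment epithelium list the log2 of the summed signal was 13.35 to 13.44 at 3 h, against 13.03 to 13.08 at 0 h. Most of that sum came from KRT18 and from KRT8, another keratin, which averaged 11.88 at 3 h and 11.48 at 0 h. OTX2, the next brightest of that list, averaged 8.56 at 3 h and 8.37 at 0 h. Over the 3 blood markers the log2 sum was 5.72 to 5.89 at 3 h, against 5.46 to 5.70 at 0 h. In the other 3 lists the ranges of the groups overlapped, at 6.36 to 7.72 at 3 h and 6.42 to 7.71 at 0 h, and the part of any marker in the results was not tested. Since these are bulk samples, fewer cells of a type and less RNA per cell cannot be told apart.

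A probe set counted as dim when its mean over the 6 arrays lay under 4.64, the 40th percentile once controls were set aside. Of the 28 member probe sets 8 were dim: both for CDH1, both for TWIST2, the single one for SNAI2, 2 of 8 for FN1 and 1 of 7 for ZEB1. The other 20 represented 7 genes, and CDH1, SNAI2 and TWIST2 therefore have no tested value. Among those 20, 7 were called higher and 2 lower at 3 h (limma, Benjamini-Hochberg adjusted p under 0.05), or 35.0% and 10.0%. Of all 29576 probe sets tested, 51.4% were called, 25.6% higher and 25.8% lower. In either direction 45.0% of the members' probe sets were called, a share near that background. Their median change was 0.06, beside 0.01 for all probe sets tested, and their median absolute change of 0.22 equalled the 0.22 of all probe sets tested. With each array centred on its median the split was 5 higher and 4 lower, and that over all probe sets was 6615 higher and 8690 lower, beside 7569 and 7624 as deposited. The 3 h values lay wholly above or below the 0 h values for 10 of the 20 (50.0%), beside 60.6% of all probe sets tested. Of the 9 calls, 7 came from probe sets with the suffix _s or _x, which can read several transcripts or cross-hybridize. Without such sets 2 calls were left, both higher: 11726615_a_at of CDH2 and 11739534_a_at of FN1.

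**Figure D1:**
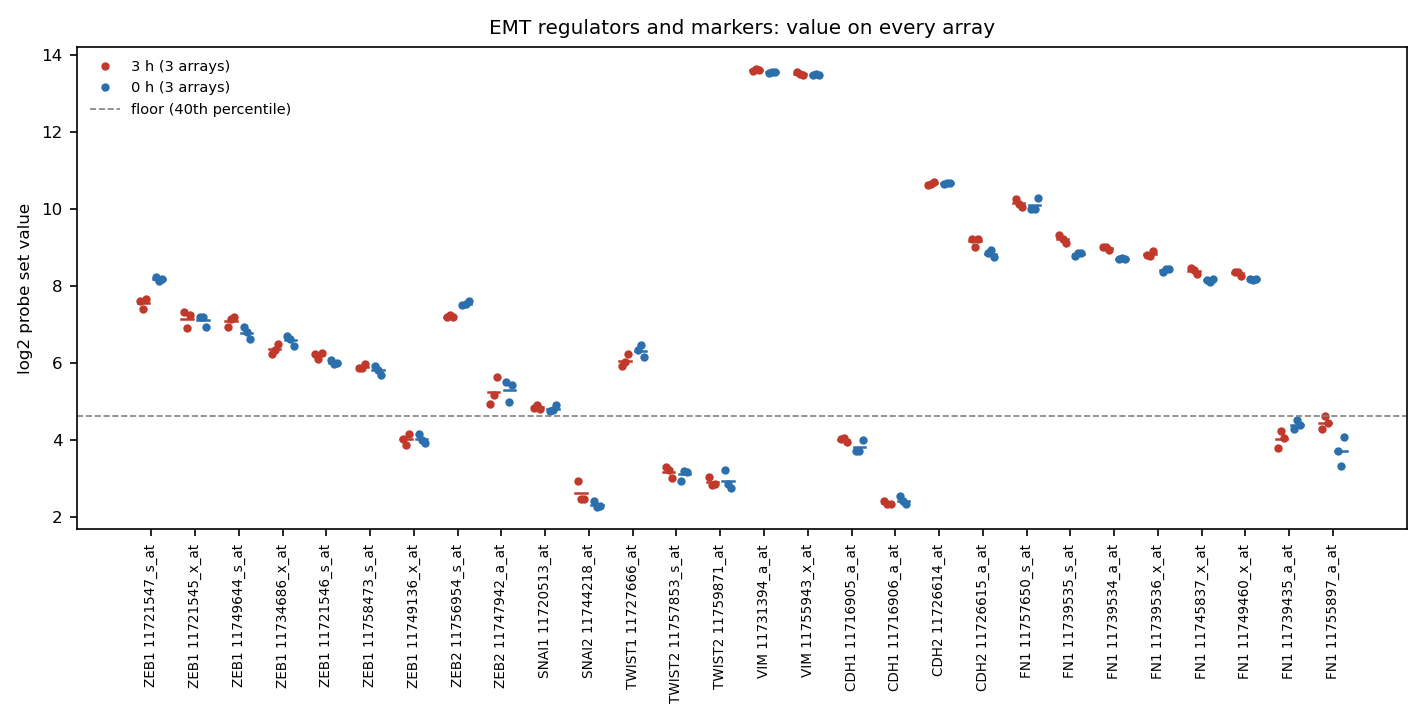
Log2 value of each of the 28 member probe sets on every array, with 3 h arrays in red to the left of 0 h arrays in blue, group means as short lines and the floor of 4.64 as a dashed line. VIM lies above 13 in both groups, and CDH1, SNAI2 and TWIST2 lie under the floor on every array.

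ZEB1, a zinc finger and homeodomain factor that binds E-box elements and represses epithelial genes, gave readings that went both ways. Its brightest probe set, 11721547_s_at, read 7.61, 7.42 and 7.66 on the 3 h arrays, against 8.24, 8.14 and 8.18 on the 0 h arrays. All 3 h values lay below all 0 h values. It fell by 0.62 (SE 0.08, limma adjusted p = 0.000369), which is 1.54-fold lower at 3 h. Per the platform annotation it is the only one of the 7 ZEB1 probe sets whose target sequence is a RefSeq transcript.

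Probe set 11749644_s_at of ZEB1 read 6.93, 7.15 and 7.21 at 3 h, against 6.94, 6.82 and 6.63 at 0 h. The groups overlapped at 1 array each, and the set rose by 0.30 (SE 0.10, limma adjusted p = 0.0355). Probe set 11721546_s_at read 6.24, 6.12 and 6.26 at 3 h, against 6.07, 5.97 and 6.01 at 0 h, and rose by 0.19 (SE 0.06, limma adjusted p = 0.0348). Its groups did not overlap, but the step was small. Leaving out 0 h replicate 2 or 3 (0.31, 0.22) or 3 h replicate 2 or 3 (0.27, 0.24) ended the call of 11749644_s_at. Leaving out any single 0 h array (0.17 to 0.22), or 3 h replicate 1 or 3 (0.18, 0.16), ended that of 11721546_s_at. Both calls also ended with the replicate block, with median centring (0.26 and 0.15) and with no floor. That of 11721546_s_at ended too with quantile normalization or array weights (0.16 each) and with trend and robust moderation (0.19).

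The remaining ZEB1 probe sets did not pass. Set 11734686_x_at stood at -0.24 (95% interval -0.45 to -0.03, limma adjusted p = 0.0554) and did not pass. It was called lower with quantile normalization (-0.27), median centring (-0.28), array weights (-0.27), the floor at the 60th percentile or trend and robust moderation (-0.24 each), and with replicate 3 of either group left out (-0.31 each). Sets 11721545_x_at and 11758473_s_at stood at 0.04 and 0.09, and the dim 11749136_x_at had a mean of 4.03 in both groups. Averaged over its probe sets above the floor, ZEB1 stood at -0.04 (limma adjusted p = 0.646) and did not pass.

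The disagreement was measured within each array. The difference between 11749644_s_at and 11721547_s_at averaged -0.47 ± 0.20 on the 3 h arrays and -1.39 ± 0.14 on the 0 h arrays (SD, n = 3 each, exact permutation p = 0.1, the smallest these arrays allow). That pair was taken for having the highest and lowest change. For a pair fixed by brightness alone, the brightest minus the second brightest probe set, the 3 h minus 0 h difference was -0.66 for ZEB1 (SE 0.10, limma adjusted p = 0.00672). Over all 7120 genes with 2 probe sets above the floor, 29.9% had a called difference of this kind. The distance of each probe set from the transcript end was not analysed here, and the part of the 5′ to 3′ shift of the actin control was not tested.

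ZEB2, the second ZEB family repressor, was lower in its brighter probe set. Set 11756954_s_at read 7.19, 7.25 and 7.19 at 3 h, against 7.50, 7.53 and 7.61 at 0 h. The groups were clearly apart, and the set fell by 0.33 (SE 0.06, limma adjusted p = 0.00208). The dimmer set 11747942_a_at read 4.93, 5.17 and 5.65 at 3 h, against 5.52, 4.99 and 5.43 at 0 h. These groups overlapped, and the change of -0.06 had a 95% interval of -0.50 to 0.39. The difference between the ZEB2 sets did not pass (brightest minus second -0.28, 95% interval -0.80 to 0.25, limma adjusted p = 0.384). Averaged over both, ZEB2 stood at -0.20 and did not pass (limma adjusted p = 0.140).

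**Figure D2:**
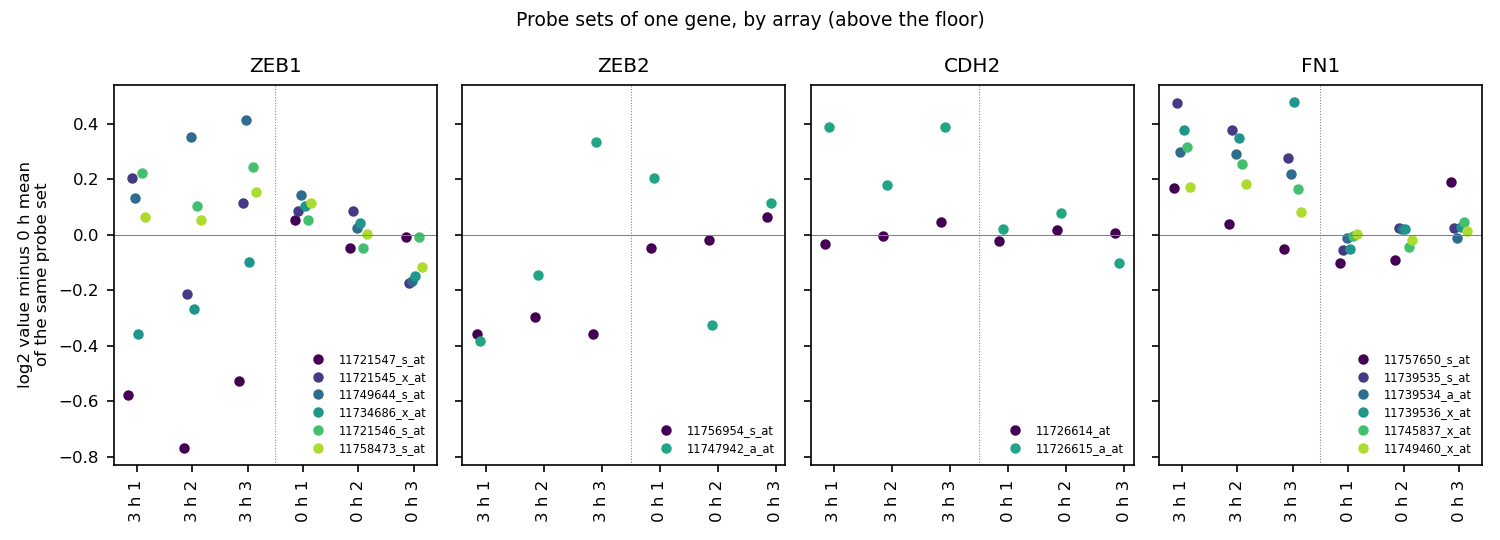
Log2 value of each probe set above the floor minus that probe set's 0 h mean, by array, with 3 h arrays left of 0 h arrays, for ZEB1, ZEB2, CDH2 and FN1; each colour is a probe set. The ZEB1 set 11721547_s_at lies lowest at 3 h while 11749644_s_at lies above 0, and in CDH2 1 of 2 sets moved.

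SNAI1, the founding member of the Snail repressors, sat just above the floor. Its probe set read 4.84, 4.91 and 4.82 at 3 h, against 4.75, 4.78 and 4.92 at 0 h. The groups overlapped, and the change of 0.04 had a 95% interval of -0.11 to 0.20 (limma adjusted p = 0.630). SNAI2, or Slug, was dim, with 2.95, 2.48 and 2.47 at 3 h, against 2.41, 2.25 and 2.29 at 0 h. Its 3 h values all lay above its 0 h values, at the 5.6th percentile of signal. Fitted with no floor, a setting in which 31.5% of 49293 probe sets were called, it did not pass (0.32, limma adjusted p = 0.1).

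TWIST1, a basic helix-loop-helix factor of mesoderm, read 5.93, 6.02 and 6.25 at 3 h, against 6.34, 6.46 and 6.17 at 0 h. The highest 3 h value lay above the lowest 0 h value. The change was -0.26 (95% interval -0.49 to -0.02, limma adjusted p = 0.0665), and it passed with 0 h replicate 3 (-0.33) or 3 h replicate 3 (-0.35) left out. It also passed with quantile normalization and median centring (-0.29 each), array weights (-0.28) and the floor at the 60th percentile (-0.26). Its relative TWIST2 was dim in both probe sets, at 3.18 and 2.92 on average at 3 h and 3.11 and 2.94 at 0 h, with changes of 0.07 and -0.03.

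VIM encodes vimentin, the intermediate filament protein of mesenchymal cells, and was among the brightest signals on the arrays. Set 11731394_a_at read 13.60, 13.65 and 13.63 at 3 h, against 13.54, 13.58 and 13.57 at 0 h. Its groups did not overlap, yet they were only 0.06 apart (95% interval -0.06 to 0.19, limma adjusted p = 0.355). Set 11755943_x_at read 13.56, 13.53 and 13.50 at 3 h, against 13.49, 13.53 and 13.48 at 0 h, and stood at 0.03 (limma adjusted p = 0.699), or -0.01 with median centring. Of the 164 probe sets with a mean of at least 13, 14.0% were called, and their median absolute change was 0.07.

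CDH1 and CDH2 encode E-cadherin and N-cadherin, the adhesion molecules whose exchange is a textbook sign of the transition. CDH1 was dim. Its brighter set, 11716905_a_at, read 4.04, 4.05 and 3.95 at 3 h, against 3.73, 3.72 and 3.99 at 0 h. The groups overlapped, and the set did not pass when fitted with no floor (0.20, limma adjusted p = 0.132). Its other set averaged 2.37 at 3 h and 2.43 at 0 h. Neither CDH1 set had a change that passed.

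CDH2 was bright, with one probe set flat and the other higher. The brightest, 11726614_at, read 10.64, 10.67 and 10.72 at 3 h, against 10.65, 10.69 and 10.68 at 0 h. Its change was 0.00 with a 95% interval of -0.13 to 0.13. Per the platform annotation its target sequence is a RefSeq transcript, and that of the other CDH2 set is not. Set 11726615_a_at read 9.24, 9.03 and 9.24 at 3 h, against 8.87, 8.93 and 8.75 at 0 h. Those groups did not overlap, and the set rose by 0.32 (SE 0.08, limma adjusted p = 0.0114). The brightest minus the second brightest set differed by -0.32 between 3 h and 0 h (limma adjusted p = 0.0318), and their average stood at 0.16 (limma adjusted p = 0.0412).

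FN1 encodes fibronectin, the matrix glycoprotein that mesenchymal cells deposit and bind through integrins, and most of its bright probe sets were higher. Of 6 above the floor 4 rose, 0 fell and 2 did not pass. Set 11739536_x_at read 8.81, 8.78 and 8.91 at 3 h, against 8.38, 8.45 and 8.46 at 0 h, and rose by 0.41 (SE 0.06, limma adjusted p = 0.000957), or 1.32-fold. Set 11739535_s_at read 9.32, 9.22 and 9.12 at 3 h, against 8.79, 8.87 and 8.87 at 0 h. It rose by 0.37 (SE 0.07, limma adjusted p = 0.00252), with no overlap of the groups.

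Set 11739534_a_at of FN1 read 9.02, 9.01 and 8.94 at 3 h, against 8.71, 8.74 and 8.71 at 0 h, and rose by 0.27 (limma adjusted p = 0.00429). Set 11745837_x_at read 8.47, 8.41 and 8.32 at 3 h, against 8.15, 8.11 and 8.20 at 0 h, and rose by 0.25 (limma adjusted p = 0.0111). The 4 calls lay between 0.25 and 0.41, and each kept its call without any single array. Set 11749460_x_at stood at 0.15 (limma adjusted p = 0.0638), and it was called with the floor at the 60th percentile, trend and robust moderation or array weights (0.15 each) and without replicate 3 at 3 h (0.18).

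The brightest FN1 set, 11757650_s_at, read 10.27, 10.14 and 10.05 at 3 h, against 10.00, 10.01 and 10.29 at 0 h. Its groups overlapped, and its change of 0.06 (95% interval -0.16 to 0.27) did not pass. It differed from the second brightest set by -0.32 between 3 h and 0 h (limma adjusted p = 0.0274). The dim FN1 sets went opposite ways: 11755897_a_at averaged 4.45 at 3 h and 3.71 at 0 h, and 11739435_a_at averaged 4.03 at 3 h and 4.40 at 0 h. Both passed when fitted with no floor (0.74 and -0.37, limma adjusted p = 0.0122 and 0.0437), and they were the only dim members that did. Set 11739435_a_at is the only FN1 probe set whose target sequence is a RefSeq transcript, and none of the sets called higher has one. Averaged over the sets above the floor, FN1 rose by 0.25 (limma adjusted p = 0.00416).

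**Figure D3:**
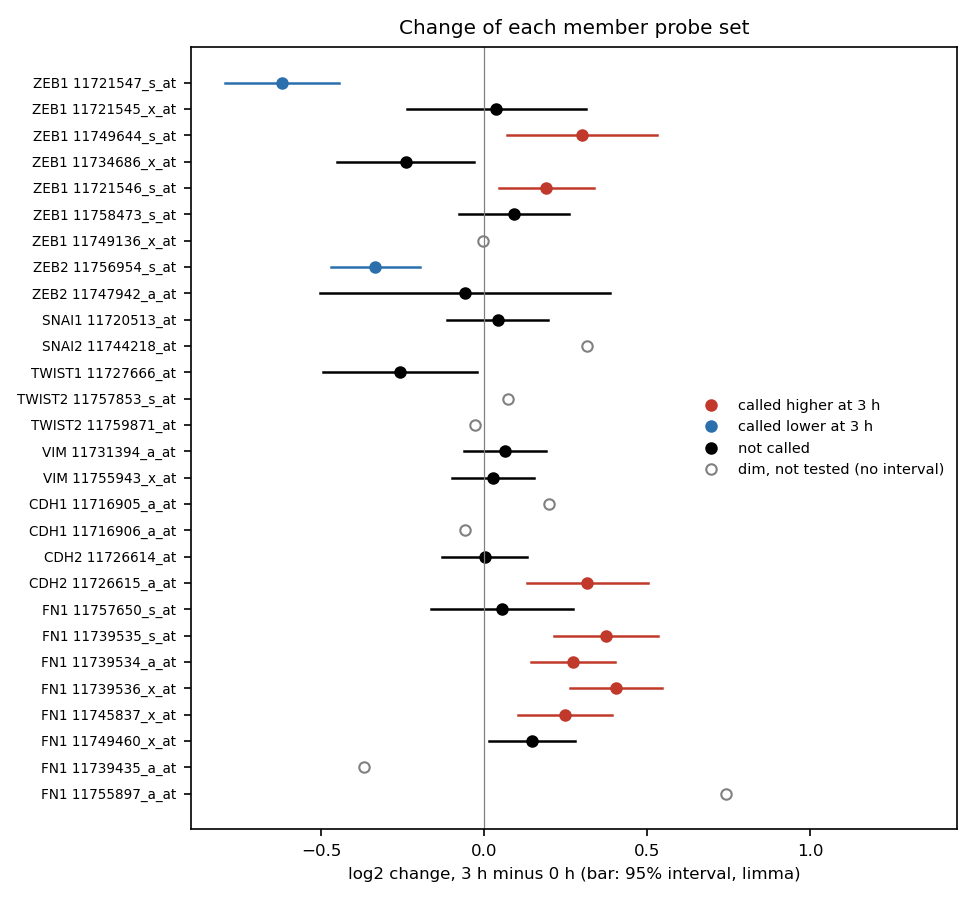
Log2 change (3 h minus 0 h) of each member probe set, with 95% intervals from limma for the 20 above the floor; red were called higher, blue lower, black not called, and open circles are dim and have no interval. The calls run from -0.62 for ZEB1 to 0.41 for FN1.

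**Figure D4:**
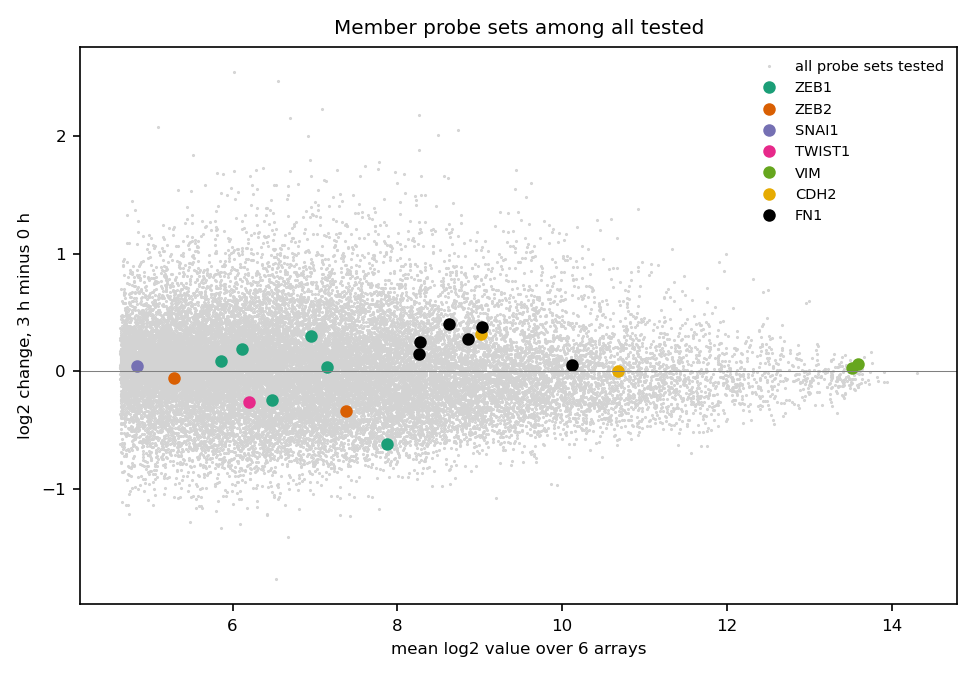
Log2 change (3 h minus 0 h) against the mean log2 value over 6 arrays for the 29576 probe sets tested (grey), with the 20 member probe sets in colour by gene. The members lie within the cloud of all probe sets, and the cloud narrows at the level of VIM.

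The ZEB and SNAI factors bind the E-box letters CACCTG. The promoter windows of 6 members were therefore searched for them on both strands (CAGGTG is the same element on the other strand). Promoters of SNAI1, SNAI2, TWIST1 and CDH1 are not reported here. The windows were the 250 bases before each annotated start in RefSeq (GRCh38.p14). Of 35116 windows of that length 17.5% hold CACCTG, 61.8% hold the general form CANNTG, of which CACCTG is one case, and 1.6% hold TGACGTCA, the cyclic AMP response element. Of 7 windows of ZEB1, 2 hold CACCTG, and the 1 window of ZEB2, the 1 of FN1, the 1 of VIM, the 1 of TWIST2 and the 2 of CDH2 hold none. These 2 ZEB1 windows are shown because they carry the motif of the ZEB factors in a ZEB gene's own promoter, at chr10:31318167-31318416 and chr10:31318966-31319215 on the plus strand, with CACCTG or CAGGTG in capitals and other CANNTG letters left in lower case.
ZEB1 window 1: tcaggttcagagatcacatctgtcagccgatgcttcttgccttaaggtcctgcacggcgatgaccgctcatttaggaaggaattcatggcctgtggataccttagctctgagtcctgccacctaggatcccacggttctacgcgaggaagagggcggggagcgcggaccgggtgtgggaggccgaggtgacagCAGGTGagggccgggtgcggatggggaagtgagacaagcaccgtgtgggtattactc
ZEB1 window 2: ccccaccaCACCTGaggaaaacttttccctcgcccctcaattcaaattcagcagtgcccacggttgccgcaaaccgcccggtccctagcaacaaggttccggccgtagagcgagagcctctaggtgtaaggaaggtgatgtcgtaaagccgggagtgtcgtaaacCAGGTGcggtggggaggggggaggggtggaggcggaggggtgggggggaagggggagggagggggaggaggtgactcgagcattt

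The FN1 window is shown, with a known cyclic AMP response element in capitals, because FN1 rose in 4 of 6 sets above the floor. It lies at chr2:215436069-215436318 on the minus strand and is written 5′ to 3′ in the direction of the gene.
FN1 window: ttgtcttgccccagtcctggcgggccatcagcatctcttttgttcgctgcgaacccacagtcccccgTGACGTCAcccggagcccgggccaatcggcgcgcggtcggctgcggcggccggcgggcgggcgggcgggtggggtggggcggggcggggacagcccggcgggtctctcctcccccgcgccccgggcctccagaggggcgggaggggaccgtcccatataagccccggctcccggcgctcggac
The element starts 183 bases before the FN1 start. The capitals of ZEB1 start 57 bases before the start in window 1 and 242 and 85 bases before it in window 2, and window 1 holds another CANNTG at 234 bases. A match of letters is a description and says nothing of binding in these cells.

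Of the member probe sets, 11721547_s_at of ZEB1 had the smallest p, and the genes whose brightest probe set followed it most closely over the 6 arrays were ZWILCH (kinetochore), MYCBP2 (a ubiquitin ligase), CAMSAP2 (microtubule minus ends), PIK3C2A (a lipid kinase) and RICTOR (mTORC2). Their Pearson r was 0.9973 to 0.9988 and their changes were -0.85 to -0.20. The 6 points fall into the study's 2 groups, and 972 of 12220 genes had an r over 0.95 with it.

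Other genes of the pathway were read from lists, each gene by its brightest probe set. Of 12221 genes tested, 20.6% were higher and 30.8% lower at 3 h, with a median change of -0.04. Among signals of the transition, 6 of 13 tested rose and 3 fell (median 0.01). EGFR, the epidermal growth factor receptor, averaged 8.44 ± 0.215 at 3 h and 7.37 ± 0.04 at 0 h (SD, n = 3 each, limma adjusted p = 9.56e-05). It rose by 1.07, and the mean of its probe sets above the floor rose by 0.71. SMAD3, which carries TGF-beta signals to the nucleus, rose by 0.78, and SMAD7, which restrains them, rose by 0.60. TGFB2 (0.46), TGFB1 (0.40) and BMP4 (0.23) were also called higher. The 3 called lower were TGFBR1 (-0.46), CTNNB1 (-0.45) and SMAD2 (-0.27). For CTNNB1 the mean of its probe sets, at 0.03, did not pass.

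Cofactors and turnover factors of the ZEB, SNAI and TWIST proteins were split, with 7 of 21 higher and 8 lower (median -0.02). Most lower calls rested on the brightest probe set. By the mean of their probe sets above the floor, TCF4, TCF12, CTBP2, EZH2, BTRC and FBXO11 did not pass, while SUZ12 and SIRT1 did. Of the genes called higher, RCOR1 did not pass by that mean. SMARCA4, a chromatin remodelling ATPase and ZEB1 partner, averaged 9.23 ± 0.09 at 3 h and 8.41 ± 0.06 at 0 h (SD, n = 3 each) and rose by 0.82. CTBP1, a corepressor of ZEB1, rose by 0.53 (0.33 for the mean of its probe sets). LOXL2, a lysyl oxidase that stabilises Snail, rose by 0.47.

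Of 11 other transcription factors of the transition 4 rose and 2 fell (median 0.09). FOXQ1, a forkhead factor, averaged 7.75 ± 0.08 at 3 h and 6.56 ± 0.15 at 0 h (SD, n = 3 each) and rose by 1.18. TCF7L2, a partner of beta-catenin, rose by 0.78, and SOX9 rose by 0.53. Most factors that hold the epithelial state were dim: 10 of the 14 with a probe set lay under the floor, GRHL2, ESRP1 and ESRP2 among them. Of the 4 tested, 1 rose and 0 fell (median 0.12). KLF5 averaged 8.44 ± 0.12 at 3 h and 7.37 ± 0.20 at 0 h (SD, n = 3 each) and rose by 1.07. KLF4 stood at 0.15 (limma adjusted p = 0.055), while the mean of its probe sets passed at 0.33, and OVOL1 stood at -0.12 (limma adjusted p = 0.164).

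Among cadherins, catenins and junction genes, 3 of 16 rose and 2 fell (median 0.00). OCLN, the tight junction protein occludin, averaged 6.04 ± 0.13 at 3 h and 6.57 ± 0.11 at 0 h (SD, n = 3 each) and fell by 0.53. JUP, or plakoglobin, rose by 0.28. DSP, or desmoplakin, fell by 0.29, but the mean of its probe sets, at -0.11, did not pass. Of the 21 genes of this list with a probe set, 16 were above the floor. EPCAM and CLDN7, which mark epithelia, were dim. CLDN1 averaged 9.22 at 3 h and 9.30 at 0 h, and CRB3 averaged 6.93 in both groups.

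Of 11 intermediate filament genes and linkers 4 rose and 2 fell (median 0.10). PLEC, which encodes plectin, a linker of vimentin to the cell cortex, averaged 10.02 ± 0.04 at 3 h and 8.67 ± 0.06 at 0 h (SD, n = 3 each) and rose by 1.35. LMNA, the nuclear lamin A gene, rose by 0.96, and KRT8, a keratin of simple epithelia, rose by 0.40 (0.72 for the mean of its probe sets).

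Fibronectin receptors and matrix partners had 10 of 24 higher and 5 lower (median 0.07). TGM2, a transglutaminase that cross-links fibronectin, averaged 10.57 ± 0.02 at 3 h and 9.78 ± 0.09 at 0 h (SD, n = 3 each) and rose by 0.78. MMP14, a membrane-bound matrix protease, rose by 0.70. The other genes called higher were ITGB3 (0.81), SDC4 (0.63), COL4A1 (0.55), SDC1 (0.48), ITGA5 (0.46), COL5A1 (0.42), LOX (0.40) and MMP2 (0.25). ITGAV, the integrin alpha V subunit, fell by 0.77, and the mean of its probe sets fell by 0.30 (limma adjusted p = 0.0224). The other genes called lower were ITGA4 (-0.86), S100A4 (-0.59), POSTN (-0.50) and TAGLN (-0.42). For TAGLN the mean of its probe sets, at 0.01, did not pass. In this list 41.7% were higher and 20.8% lower, beside 20.6% and 30.8% of all genes tested, with no test of the list.

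**Figure D5:**
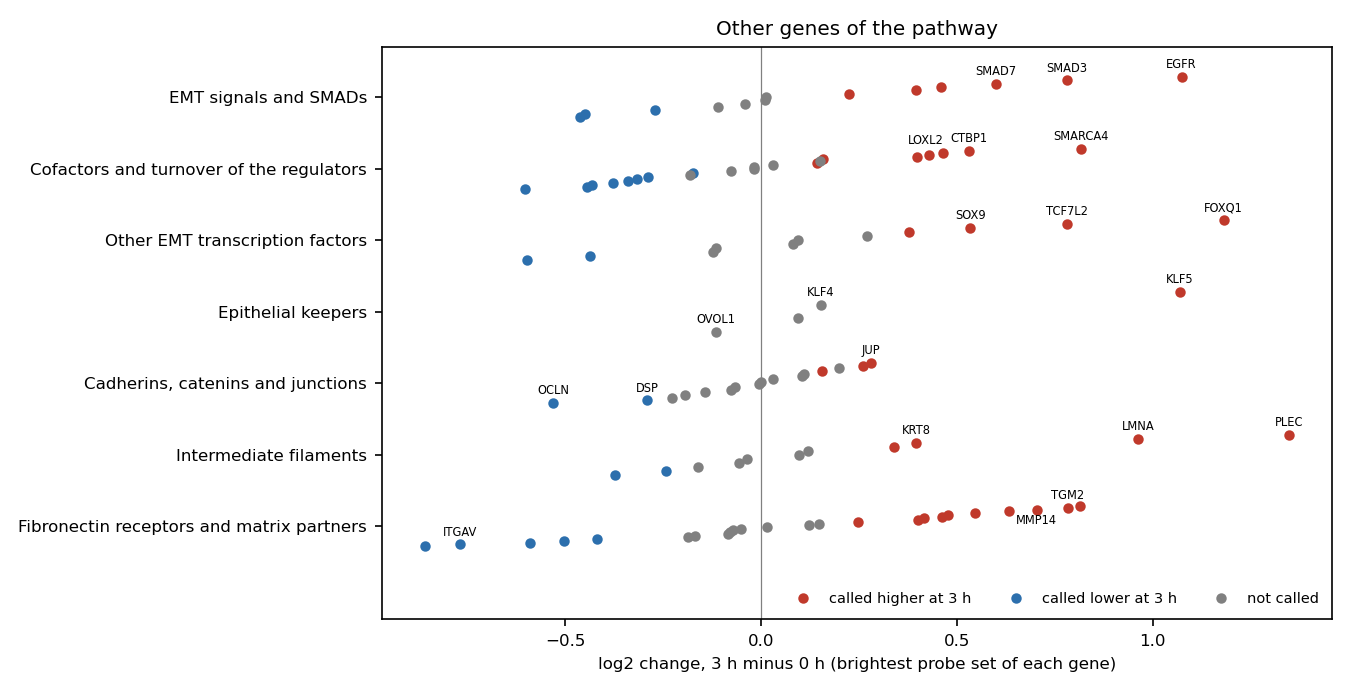
Log2 change (3 h minus 0 h) of the brightest probe set of each tested gene in 7 lists; red were called higher, blue lower and grey not called, and the 3 genes with the smallest p in each list are named. Calls in both directions are seen in 6 of the 7 lists.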

How the data were processed

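RNA was labelled for the arrays by a 3′ transcription method, per the labels' protocols. As deposited, the table gives log2 values for 49372 probe sets on 6 arrays, with array medians of 5.30 to 5.34; the log2 scale was read from the values. Per the submitters' processing notes, MAS5 and RMA were used; which gave these values, and in what version, is not stated there. Groups came from the sample titles. Probe sets were named where the platform annotation gave 1 symbol (44988 of 49293 that are not controls); 1832 have several and 2473 none.

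The 79 controls and probe sets under the 40th percentile were left out, and 29576 were compared (3 h minus 0 h) by limma 3.58.1 (lmFit, eBayes; R 4.3.3), Benjamini-Hochberg adjusted over all of them, threshold 0.05. Pairs of probe sets were compared by a two-sided exact permutation test over 5 genes (adjusted p 0.167 to 0.500) and, chosen after seeing the data, by limma over all genes with 2 probe sets above the floor. On simulated data for this comparison over 29576 probe sets, 97 of 100 changed by 1 and 65 of 100 changed by 0.5 on the log2 scale were called, with 3 unchanged ones. Only those few probe sets were changed in the simulation, while 51.4% were called in the data. Its adjusted threshold was therefore stricter, and its counts do not give the rate of missed or false calls in the data.

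All member probe sets are accounted for; from each list the 3 genes with the smallest p are named, and others named from lists were chosen after their values were seen. The members and lists were chosen with earlier results of these data known. Alternatives covered scaling, floor, moderation, array weights, replicate block, threshold, shared probe sets, averaging over probe sets and leaving out each array. The number of arrays limits the precision. Figures were drawn with matplotlib 3.10.9.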

Additional observations from a re-analysis of the deposited data

How the results depend on the processing

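Of 304 repeats over the members' probe sets and genes, 247 kept direction and side of the threshold (for means with no test, moved by under 1 SD), 26 no longer passed, 22 newly passed, 3 moved by more with no test, and 6 changed sign, all of them values not called. Those were 11721545_x_at of ZEB1 with array weights (-0.04) and without single arrays (-0.05), 11747942_a_at of ZEB2 without replicate 1 at 0 h or at 3 h (0.04, 0.10), and 11755943_x_at of VIM with median centring (-0.01). Sign was read from changes rounded to 2 decimals, so 11726614_at of CDH2, at 0.00, was never counted as changing sign. It stood at -0.04 with median centring, -0.01 without replicate 1 at 0 h and -0.02 without replicate 3 at 3 h. Without arrays in turn, 11721545_x_at ranged from -0.05 to 0.16 and 11747942_a_at from -0.26 to 0.10. The calls of 11721547_s_at (ZEB1), 11756954_s_at (ZEB2), 11726615_a_at (CDH2) and the 4 FN1 sets held in every alternative that tested them at 0.05. Over all probe sets, 15193 calls (7569 higher, 7624 lower) became 9594 (4927, 4667) without shared or cross-hybridizing probe sets, where fewer were tested. The members' calls were then 2, both higher, and 0 lower, since the ZEB1 and brighter ZEB2 sets are among those left out. At a threshold of 0.01 the members had 5 calls, 3 of them higher, and all probe sets had 10369, 5220 of them higher. The members' lower calls were 4 with quantile normalization, median centring, the stricter floor or array weights, where those over all probe sets were 8099, 8690, 6359 (fewer tested) and 7885, and 2 to 4 without single arrays; the cause was not tested. With the replicate block 13862 probe sets and 7 member probe sets (5 higher, 2 lower) were called; 11749644_s_at and 11721546_s_at of ZEB1 no longer passed, and no other member's call changed. Deviations of same-numbered arrays had r of -0.19 to -0.01, and those of arrays with different numbers had -0.17 to 0.20. No pairing by number was seen, but with groups this small the check cannot exclude one. Probe set differences passed with limma for ZEB1 (0.66), CDH2 (0.32) and FN1 (0.32), where the exact test cannot. CDH1, SNAI2 and TWIST2 lay under the floor and SNAI1 just above it.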
